A study of Mus musculus with 11 samples.

Results

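The genes described here are 27 genes of cholesterol synthesis, of its control by the transcription factor SREBP2 and of sterol transport, out of 55487 gene IDs in an RNA sequencing experiment on mouse macrophages. They were chosen by name for their place in the pathway, with earlier results of these data known. Every one of the 27 was found in the count table and was expressed strongly enough to be tested among 15135 genes. The cells were bone marrow-derived macrophages of C57BL/6J mice aged 2 to 5 months, which are marrow cells grown for 5 to 6 days in a medium conditioned by CMG cells that turns them into macrophages. The control group holds 7 libraries of cells given 0 µg/ml CYR61 and the treated group 4 libraries of cells given 0.5 µg/ml CYR61, a secreted matrix protein also called CCN1, with RNA taken after 24 h. Both groups share the strain, the differentiation and a maintenance medium with serum and less of the conditioned medium; the labels do not name a vehicle for the controls. Nothing in the labels ties a library to its own mouse or culture, so p-values measure only library-to-library spread, and this may be technical.

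Cholesterol is built from acetyl-CoA through HMG-CoA and mevalonate to isoprenoid units, which are joined to squalene, closed to the ring of lanosterol and trimmed to cholesterol. The membrane-bound precursor of SREBP2 is carried by SCAP from the endoplasmic reticulum to the Golgi for cleavage when membrane cholesterol is low, and the released part switches on nearly every gene of the pathway. INSIG proteins hold SCAP back when sterols are plentiful. Macrophages also take up cholesterol with lipoproteins and engulfed cells, so they regulate their own synthesis against a variable supply. 

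CYR61-treated macrophages had more RNA of most cholesterol synthesis genes, each by a modest amount. Of the 27 genes, 19 rose, 0 fell and 8 did not pass the test (edgeR quasi-likelihood test, Benjamini-Hochberg adjusted p under 0.05). Among all genes tested, 5.33% rose and 2.63% fell. In the same 19 genes every CYR61 library stood above every control library, a pattern that 4.65% of all genes tested showed, against 2.5% with every CYR61 library below. The median of the 27 was 1.2 times control (log2 0.26), beside 0.995 times (log2 -0.008) over all genes tested, and single genes ran from 0.948 to 1.41 times control. The 27 were chosen with earlier results of these data known, so their count is a description. The authors' deposited table, for which no source used here gives a method, has 20 of the 27 higher and 0 lower at the same threshold. With counts scaled by library size alone, 529 genes rose and 938 fell in place of 806 and 398, and of the 27 genes 18 rose and 1, Lbr, fell.

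**Figure D1:**
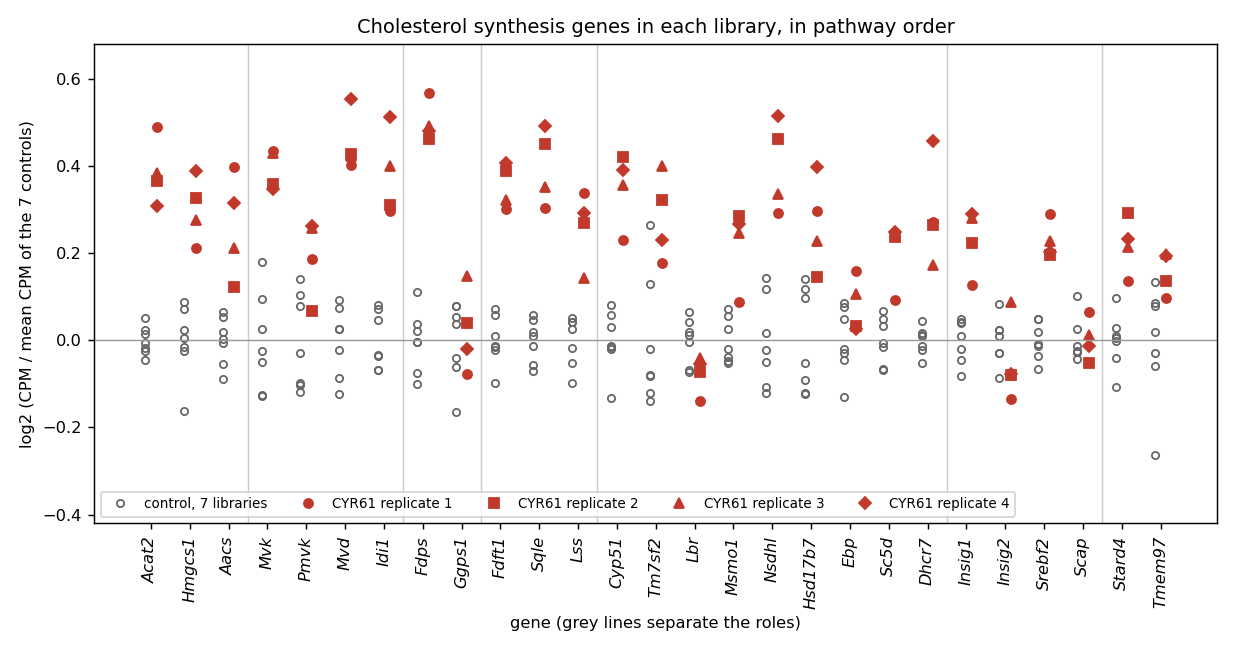
Each point is 1 library: the log2 ratio of a gene's CPM (each library's counts scaled to a common total by TMM) to the mean CPM of the 7 controls, with control libraries as open circles and the 4 CYR61 replicates as filled symbols, genes in pathway order. In 19 genes all filled symbols lie above all open circles; Pmvk, Ggps1, Tm7sf2, Lbr, Ebp, Insig2, Scap and Tmem97 overlap.

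The libraries were of similar depth, with 14912123 to 21047654 counts in controls and 17390272 to 20760322 in CYR61 libraries (p = 0.794 in an exact two-sided permutation test with 330 splits). The 27 genes held from 119 counts (Tm7sf2) to 5386 counts (Srebf2) in a library. No pair of replicates agreed within sampling noise, and CYR61 replicate 4 stood furthest from its group, with 2.4% of counts in ribosomal RNA against 0.246 to 0.562% in CYR61 replicates 1 to 3 and 0.255 to 0.797% in controls. CYR61 replicate 1 had the lowest share of mitochondrial counts, 0.9535%. This share was 1.315 to 1.393% in CYR61 replicates 2 to 4 and 1.235 to 1.504% in controls. Without CYR61 replicate 4, 18 of the 27 genes rose and 0 fell. The same numbers, 18 and 0, came from a fit without both CYR61 replicates 1 and 4, which was added once the data had been seen. Macrophage markers were abundant, with a summed level of 22340 to 23730 CPM in controls and 24710 to 26920 CPM in CYR61 libraries, and 5 of the 8 were higher. Markers of most other cells were near 0: 6 neutrophil genes summed to 0.634 to 1.34 CPM in controls and 1.61 to 2.02 CPM in CYR61 libraries with Ly6g at 0, and 6 T cell genes to 0.161 to 0.889 and 0.554 to 1.18 CPM with Cd3e and Cd3g at 0. The 7 stromal genes summed to 0.545 to 1.64 and 0.822 to 1.63 CPM (Lum at 0) and the 5 mast cell and basophil genes to at most 0.0561 CPM (Ms4a2 and Fcer1a at 0). The 6 dendritic cell genes summed to 1.36 to 2.24 and 1.33 to 2.05 CPM. The 6 osteoclast genes summed to 24.6 to 30.5 and 28.9 to 34.3 CPM with Calcr at 0, and 1 of the 3 tested was higher, as was the 1 neutrophil gene tested. The part of the macrophage, osteoclast and neutrophil markers in the results was not tested. In bulk RNA, fewer cells of a type and less RNA per cell cannot be told apart.

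The first steps join acetyl units into HMG-CoA, and all 3 genes of this stretch rose. Acat2, the cytosolic thiolase that joins 2 acetyl-CoA, stood at 15.5 to 16.5 CPM (median 15.9) in controls and at 22.4, 20.6, 20.8 and 19.8 CPM in CYR61 replicates 1 to 4. It rose 1.31-fold (log2 fold change 0.39 ± 0.049 (SE), edgeR adjusted p = 5.39e-05), and its controls varied least of the 3 genes. Hmgcs1, the HMG-CoA synthase of the cytosol, was measured at 83.9 to 99.9 CPM (median 94.2) in controls and at 109, 118, 114 and 123 CPM with CYR61. The change was 1.23-fold (log2 fold change 0.30 ± 0.043 (SE), edgeR adjusted p = 1.73e-04), and the lowest CYR61 library, replicate 1, was still above the highest control. Aacs, which turns the ketone body acetoacetate into acetoacetyl-CoA for lipid synthesis, was at 56.1 to 62.5 CPM (median 59.8) in controls and at 78.6, 64.9, 69.1 and 74.3 CPM with CYR61. Its rise of 1.2-fold (log2 fold change 0.26 ± 0.045 (SE), edgeR adjusted p = 9.97e-04) was uneven, since CYR61 replicate 2 lay only just above the top control and replicate 1 far above it.

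The upstream sequence of Hmgcs1 is shown because it was the 1 promoter of the set with the sterol element searched for, and the stretch between the start sites of Mvk and Mmab because of these neighbours, transcribed away from each other, Mvk passed the test and Mmab did not. The sequences of Insig1 and Insig2 are shown as paralogs of which Insig1 passed and Insig2 did not, Insig2 at the first listed of its 3 starts. All are from RefSeq on GRCm38.p6, 5′ to 3′ on the strand of the first gene named, and end at or before the RefSeq start, without stretches that GENCODE M21 annotates as exon. Capitals mark CCAAT, the box bound by NF-Y, or its reverse complement ATTGG, and in Hmgcs1 also the sterol element TCACCCCAC.
Hmgcs1 (chr13:119690101-119690350, + strand): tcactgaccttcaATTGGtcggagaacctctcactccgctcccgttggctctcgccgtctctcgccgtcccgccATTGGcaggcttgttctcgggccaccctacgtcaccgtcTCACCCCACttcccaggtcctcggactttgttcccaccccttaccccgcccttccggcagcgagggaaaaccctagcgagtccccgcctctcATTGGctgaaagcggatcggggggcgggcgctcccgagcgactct
Mvk-Mmab (chr5:114444061-114444268, + strand): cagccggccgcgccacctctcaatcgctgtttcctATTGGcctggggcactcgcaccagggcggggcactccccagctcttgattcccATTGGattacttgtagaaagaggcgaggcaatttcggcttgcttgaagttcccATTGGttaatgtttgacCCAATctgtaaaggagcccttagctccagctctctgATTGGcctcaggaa
Insig1 (chr5:28071162-28071362, + strand): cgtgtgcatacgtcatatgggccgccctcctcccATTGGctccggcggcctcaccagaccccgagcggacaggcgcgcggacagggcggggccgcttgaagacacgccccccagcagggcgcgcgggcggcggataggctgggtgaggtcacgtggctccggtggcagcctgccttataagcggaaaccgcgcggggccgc
Insig2 (chr1:121332590-121332839, - strand): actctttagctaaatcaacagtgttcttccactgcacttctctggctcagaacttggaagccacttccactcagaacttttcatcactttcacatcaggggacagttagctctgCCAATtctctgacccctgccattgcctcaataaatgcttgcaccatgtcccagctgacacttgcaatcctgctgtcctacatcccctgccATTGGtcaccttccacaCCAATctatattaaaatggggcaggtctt

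SREBP2 is known to work at promoters together with NF-Y and Sp1. In the 250 bases before the start, 4 motifs were searched on both strands in the promoters of 23 of the 27 genes. Fdps, Fdft1, Sqle and Stard4 had no entry. Some genes had more than 1 start, which gave 29 windows, and a gene was counted if any of its windows matched. The sterol regulatory element was searched as TCACNCCAC. The NF-Y box was searched as CCAAT. The GC box, which Sp1 binds, was searched as GGGCGG, in the same windows and with the same rule for the strands. The E-box, a palindrome bound by many helix-loop-helix factors and also by SREBPs, was searched as CACGTG. The NF-Y box was present in 20 of the 23 (87.0%), beside 37.5% of all 27025 genes of the table, which include noncoding and predicted genes. The GC box was also present in 20 of 23, beside 35.4% of all genes, the E-box in 5 (21.7% beside 6.86%) and the sterol element in 1 (4.35% beside 1.22%). No match of one motif overlapped a match of another in these promoters. Among genes that rose, the NF-Y box was in 13 of 15 and the GC box in 14 of 15. Among genes that did not pass, they were in 7 of 8 and 6 of 8. In Insig2 the GC box lay only at starts other than the one printed. Which starts were in use in these cells was not tested. A match describes letters only, and the promoters were not matched for base composition.

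Mevalonate is next phosphorylated, decarboxylated and isomerised to the isoprenoid units, and 3 of these 4 genes rose. Mvk, mevalonate kinase, stood at 14.3 to 17.7 CPM (median 15.4) in controls and at 21.1, 20, 21.1 and 19.9 CPM in the CYR61 libraries, a rise of 1.31-fold (log2 fold change 0.39 ± 0.061 (SE), edgeR adjusted p = 3.82e-04). Mmab, an enzyme of vitamin B12 metabolism whose start lies next to that of Mvk in the sequence above, was at 13.3 to 16.1 CPM (median 14.4) in controls and at 15.7, 15, 15.4 and 14.5 CPM with CYR61, which did not pass (1.05-fold, 95% interval 0.966 to 1.15, edgeR adjusted p = 0.532). The ratio of Mvk to Mmab counts within a library, which does not depend on library scaling, was 0.955 to 1.21 in the controls and 1.35, 1.34, 1.37 and 1.37 in the CYR61 libraries. The ratios do not overlap, so the neighbours on this shared stretch moved unequally; this pair was chosen after its values were seen and was not tested.

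Pmvk, phosphomevalonate kinase, was the exception of this stretch, at 12.5 to 15 CPM (median 13.3) in controls and 15.5, 14.2, 16.3 and 16.3 CPM with CYR61. Replicate 2 lay inside the control range, and the change of 1.14-fold (95% interval 1.04 to 1.26; such intervals are not adjusted for the number of genes) had an edgeR adjusted p of 0.0932, which became 0.0496 without control replicate 7. Mvd, mevalonate diphosphate decarboxylase, was at 30.1 to 35 CPM (median 33.4) in controls and at 43.4, 44.1, 44 and 48.1 CPM with CYR61. It rose 1.37-fold (log2 fold change 0.45 ± 0.046 (SE), edgeR adjusted p = 5.42e-06), second among the 27 to Fdps, with CYR61 replicate 4 well above the other 3. Idi1, the isomerase that makes the reactive isoprenoid unit, was at 33.3 to 37 CPM (median 34.2) in controls and at 43, 43.4, 46.1 and 49.9 CPM with CYR61, a rise of 1.3-fold (log2 fold change 0.38 ± 0.047 (SE), edgeR adjusted p = 4.29e-05). In Mvk, Mvd and Idi1 the lowest CYR61 library was above the highest control.

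The isoprenoid units are joined by 2 prenyl diphosphate synthases, of which Fdps rose and Ggps1 did not pass. Fdps makes farnesyl diphosphate, the branch point from which sterols, ubiquinone, dolichol and protein prenyl groups are drawn, and it had the largest fold of the 27. Its controls lay at 52.5 to 60.7 CPM (median 56.1) and its CYR61 libraries at 83.4, 77.5, 79.1 and 78.5 CPM, with a wide gap between the groups (1.41-fold, log2 fold change 0.50 ± 0.038 (SE), edgeR adjusted p = 1.99e-07). Ggps1, which extends farnesyl diphosphate to geranylgeranyl diphosphate for protein prenylation, was at 15.8 to 18.6 CPM (median 18.1) in controls and at 16.7, 18.1, 19.6 and 17.4 CPM with CYR61. CYR61 replicate 3 lay above the controls and the other 3 within their range (1.02-fold, 95% interval 0.932 to 1.11, edgeR adjusted p = 0.867). The within-library ratio of Fdps to Ggps1 was 2.82 to 3.67 in the controls and 4.98, 4.27, 4.05 and 4.51 in the CYR61 libraries, without overlap; this pair, too, was chosen after its values were seen, and its ratio was not tested.

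The 3 enzymes that commit farnesyl diphosphate to sterols all rose. Fdft1, squalene synthase, was at 38.6 to 43.4 CPM (median 40.9) in controls and at 50.9, 54, 51.6 and 54.8 CPM with CYR61 (1.28-fold, log2 fold change 0.35 ± 0.037 (SE), edgeR adjusted p = 8.81e-06). Sqle, squalene epoxidase, a rate-limiting oxygen-requiring step, was at 49.6 to 54.3 CPM (median 52.5) in controls and at 64.3, 71.3, 66.6 and 73.3 CPM with CYR61 (1.32-fold, log2 fold change 0.40 ± 0.039 (SE), edgeR adjusted p = 3.65e-06). Lss, which folds the epoxide into lanosterol, was at 50.1 to 55.6 CPM (median 54.7) in controls and at 67.8, 64.7, 59.3 and 65.7 CPM with CYR61 (1.2-fold, log2 fold change 0.26 ± 0.040 (SE), edgeR adjusted p = 3.04e-04). In all 3 the groups were apart, by the smallest margin in Lss, where CYR61 replicate 3 was nearest to the controls. The annotation used here (GENCODE M21) has Fdft1 overlap the cathepsin gene Ctsb on the other strand by 774 bases. Ctsb is far more abundant, at 9680 ± 505 and 10900 ± 341 CPM, and rose 1.12-fold (edgeR adjusted p = 0.00669). Without known strand, reads of the shared bases cannot be told apart. Longer overlaps of gene spans included Lss with 4930483K19Rik (11268 bases), Mvd with Gm20388 (9822) and Hmgcs1 with Gm48342 (6190). On the same strand, Fdps overlaps Gm43738 (7512 bases) and Srebf2 overlaps Gm49502 (2110). These neighbours had group means of at most 3.42 CPM. How shared reads were assigned was not tested. The counts of Acat2, Hmgcs1, Idi1, Fdps, Fdft1, Lss, Lbr and Scap were whole numbers in none of the 11 libraries, which an estimate that splits reads between genes or transcripts can give.

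Between lanosterol and cholesterol, 6 of 9 genes rose and 3 did not pass. Cyp51, the demethylase that starts this stretch, was at 53.7 to 62.2 CPM (median 58.3) in controls and at 69, 78.8, 75.4 and 77.1 CPM with CYR61 (1.28-fold, log2 fold change 0.35 ± 0.042 (SE), edgeR adjusted p = 3.02e-05), and its groups did not overlap. The next step, reduction of the sterol ring, can be done by either of 2 enzymes, and neither passed. Tm7sf2, the reductase of the endoplasmic reticulum, was at 6.59 to 8.71 CPM (median 6.87) in controls and at 8.21, 9.07, 9.57 and 8.52 CPM with CYR61, with CYR61 replicates 1 and 4 inside the control range (1.22-fold, 95% interval 1.07 to 1.38, edgeR adjusted p = 0.0548). Its call depended on the fit: it passed in 6 of 22 alternatives, limma-voom among them (adjusted p = 0.0496), and also without control replicate 1 or 7 or CYR61 replicate 1 (adjusted p = 0.049, 0.0123 and 0.0497), and the authors' deposited table gives an adjusted p of 0.0398. Lbr, the lamin B receptor of the inner nuclear membrane, which carries the same reductase activity, was at 46.9 to 51.6 CPM (median 49.7) in controls and at 44.7, 46.9, 48 and 47.5 CPM with CYR61 (0.948 times control, 95% interval 0.899 to 0.9998, edgeR adjusted p = 0.242; adjusted p = 0.0365 with counts scaled by library size alone). The ratio of Tm7sf2 to Lbr counts within a library was 0.129 to 0.177 in the controls and 0.183, 0.193, 0.200 and 0.179 in the CYR61 libraries, which do not overlap although each gene alone did; this pair was likewise chosen after its values were seen and its ratio not tested. Tm7sf2 shares 532 bases with Vps51 on the same strand, and Vps51 was at 64 ± 4.12 and 68.3 ± 3.28 CPM (edgeR adjusted p = 0.28).

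Msmo1 and Nsdhl act in turn in removing the methyl groups at the fourth carbon, and Hsd17b7 reduces the ketone that is left. Msmo1 was at 60.6 to 66.1 CPM (median 62) in controls and at 66.9, 76.6, 74.6 and 75.7 CPM with CYR61, with CYR61 replicate 1 just above the highest control (1.17-fold, log2 fold change 0.22 ± 0.039 (SE), edgeR adjusted p = 0.00119). Nsdhl was at 20.1 to 24.1 CPM (median 21.5) in controls and at 26.7, 30.1, 27.5 and 31.2 CPM with CYR61, the largest fold of the late steps (1.32-fold, log2 fold change 0.40 ± 0.060 (SE), edgeR adjusted p = 2.53e-04). Hsd17b7 was at 9.26 to 11.1 CPM (median 9.71) in controls and at 12.4, 11.1, 11.8 and 13.3 CPM with CYR61 (1.21-fold, log2 fold change 0.27 ± 0.074 (SE), edgeR adjusted p = 0.0310), with CYR61 replicate 2 barely above the highest control. This was the least stable of the 19 calls: it was lost in 9 of 22 alternatives, while its log2 fold change stayed between 0.188 and 0.312 in all of them. Its call was lost without control replicate 2 or 6 and without CYR61 replicate 1, 3 or 4 (adjusted p = 0.0585, 0.0577, 0.0637, 0.0576 and 0.116).

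The last steps move, insert and saturate double bonds. Ebp, the sterol isomerase, was at 32.4 to 37.6 CPM (median 35) in controls and 39.6, 36.3, 38.1 and 36.1 CPM with CYR61, replicates 2 and 4 being inside the control range (1.06-fold, 95% interval 0.988 to 1.13, edgeR adjusted p = 0.357). Sc5d, the desaturase after it, was at 45.9 to 50.4 CPM (median 48) in controls and at 51.3, 56.7, 57.1 and 57.2 CPM with CYR61, with replicate 1 near the top control and the other 3 close together (1.16-fold, log2 fold change 0.21 ± 0.039 (SE), edgeR adjusted p = 0.00209). Dhcr7, the reductase that makes cholesterol from 7-dehydrocholesterol, was at 31.7 to 33.9 CPM (median 33.1) in controls and at 39.6, 39.5, 37 and 45.1 CPM with CYR61 (1.23-fold, log2 fold change 0.30 ± 0.047 (SE), edgeR adjusted p = 4.36e-04). In Sc5d and Dhcr7 no control reached a CYR61 library.

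**Figure D2:**
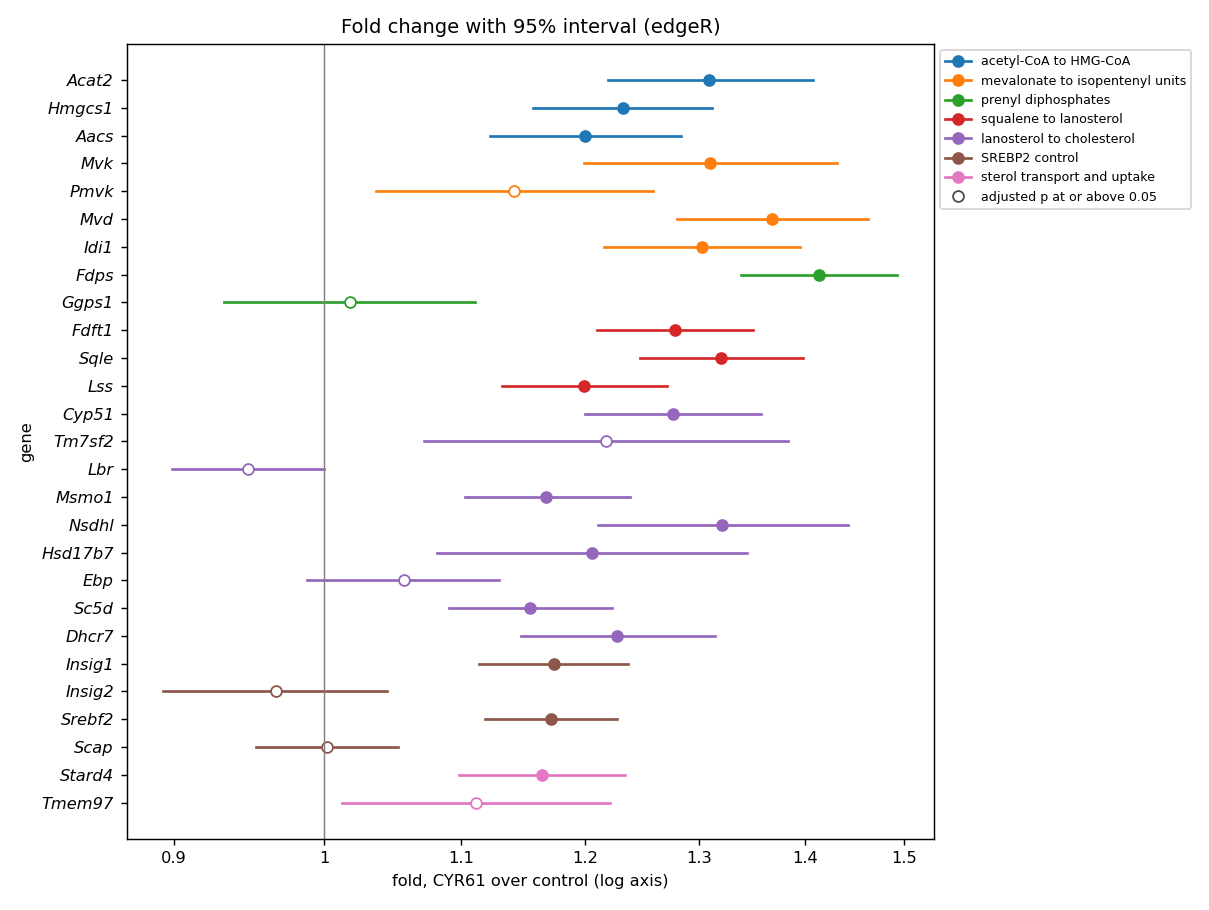
Fold change of each gene, CYR61 over control, on a log axis, with its 95% interval from edgeR, coloured by role; open circles did not pass at an adjusted p under 0.05. Fdps, Mvd, Nsdhl and Sqle lie furthest to the right, and Scap, Ggps1, Insig2 and Lbr lie between 0.948 and 1.02.

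Of the 4 genes of the control machinery, Srebf2 and Insig1 rose and Scap and Insig2 did not pass. Srebf2, which encodes SREBP2 and is known to be activated by it in turn, stood at 222 to 240 CPM (median 230) in controls and 284, 266, 271 and 267 CPM with CYR61 (1.17-fold, log2 fold change 0.23 ± 0.031 (SE), edgeR adjusted p = 1.21e-04). Scap, the escort of SREBP2, was at 68.5 to 75.8 CPM (median 69.5) in controls and at 73.8, 68.1, 71.2 and 70 CPM with CYR61 (1.002-fold, 95% interval 0.953 to 1.05, edgeR adjusted p = 0.977). The groups of Srebf2 are apart and those of Scap overlap. The ratio of Srebf2 to Scap counts was 3.17 to 3.43 in the controls and 3.84, 3.9, 3.81 and 3.81 in the CYR61 libraries. Against Srebf1, which encodes SREBP1, the Srebf2 ratio was 2.28 to 2.41 in the controls and 2.33, 2.52, 2.52 and 2.56 with CYR61. These ratios overlap, since CYR61 replicate 1 lay inside the control range. Insig1, the feedback retention protein whose gene is an SREBP target, was at 93.3 to 102 CPM (median 99.5) in controls and at 108, 115, 120 and 121 CPM with CYR61 (1.17-fold, log2 fold change 0.23 ± 0.036 (SE), edgeR adjusted p = 3.73e-04). Its paralog Insig2 was at 17.9 to 20.2 CPM (median 19.2) in controls and at 17.4, 18.1, 20.2 and 18.1 CPM with CYR61 (0.966 times control, 95% interval 0.893 to 1.04, edgeR adjusted p = 0.668). The groups of Insig1 are apart, and those of Insig2 overlap with CYR61 replicate 1 as the lowest library. The ratio of Insig1 to Insig2 was 4.92 to 5.66 in the controls and 6.22, 6.39, 5.93 and 6.68 in the CYR61 libraries, without overlap. These pairs were chosen after their values were seen, and their ratios were not tested.

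**Figure D3:**
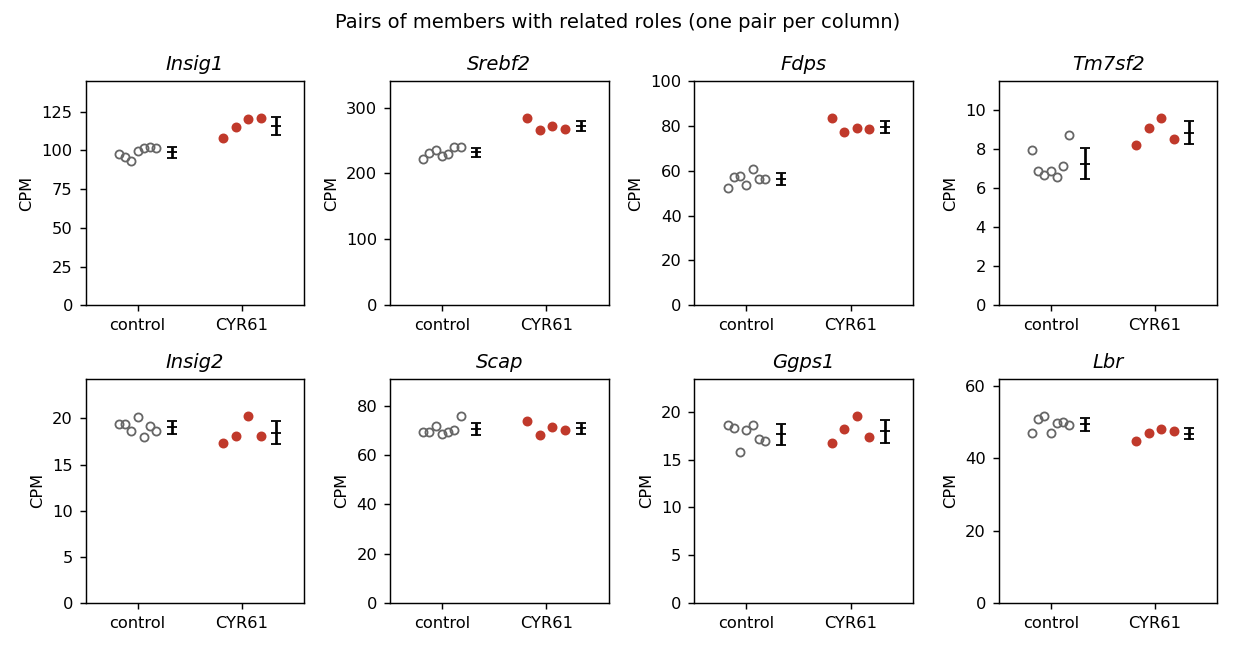
CPM of each library (open circles 7 controls, filled circles 4 CYR61 libraries, bars mean and SD, axes from 0) for Insig1 with Insig2, Srebf2 with Scap, Fdps with Ggps1 and Tm7sf2 with Lbr, one pair per column. In the first 3 columns the groups are apart in the top panel and overlap in the bottom one; in the fourth both panels overlap.

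For sterol transport, Stard4, a soluble carrier that moves cholesterol between membranes and is itself sterol-regulated, was at 42.6 to 49.1 CPM (median 46.1) in controls and at 50.5, 56.2, 53.3 and 53.9 CPM with CYR61 (1.16-fold, log2 fold change 0.22 ± 0.040 (SE), edgeR adjusted p = 0.00151), with no overlap. Tmem97, the sigma-2 receptor, a regulator of lysosomal cholesterol export, was at 14.8 to 19.4 CPM (median 17.9) in controls and at 19, 19.5, 20.3 and 20.2 CPM with CYR61. Control replicate 1 was the lowest library by a clear margin, control replicate 4 reached into the CYR61 range, and the change did not pass (1.11-fold, 95% interval 1.01 to 1.22, edgeR adjusted p = 0.177).

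Levels can be compared between genes per length of exon. In controls Srebf2 (32.3 ± 0.96 CPM per kb) and Insig1 (31.9 ± 1.1) were highest and did not differ beyond their spread, followed by Hmgcs1 (20.4 ± 1.1) and Mvd (17.6 ± 0.97). Aacs, Ebp, Fdps, Cyp51 and Tmem97 came next, from 15.5 down to 12.9 CPM per kb. In the middle, Lbr (10.4 ± 0.38), Msmo1 (10.2 ± 0.37), Idi1 (9.98 ± 0.45), Sc5d (9.89 ± 0.36), Fdft1 (9.77 ± 0.38), Scap (9.48 ± 0.34) and Sqle (9.4 ± 0.32) followed each other within about 1 SD. Lowest were Ggps1 (3.74 ± 0.23), Hsd17b7 (1.97 ± 0.16) and Tm7sf2 (1.65 ± 0.18 CPM per kb). All are mean ± SD over 7 controls. Lbr was thus present at a level per length several times that of Tm7sf2, and the level per length did not follow the order of steps. Exon lengths are from GENCODE M21, which may differ from the authors' annotation, and a union of all exons gives lower values to genes with long unused exons.

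**Figure D4:**
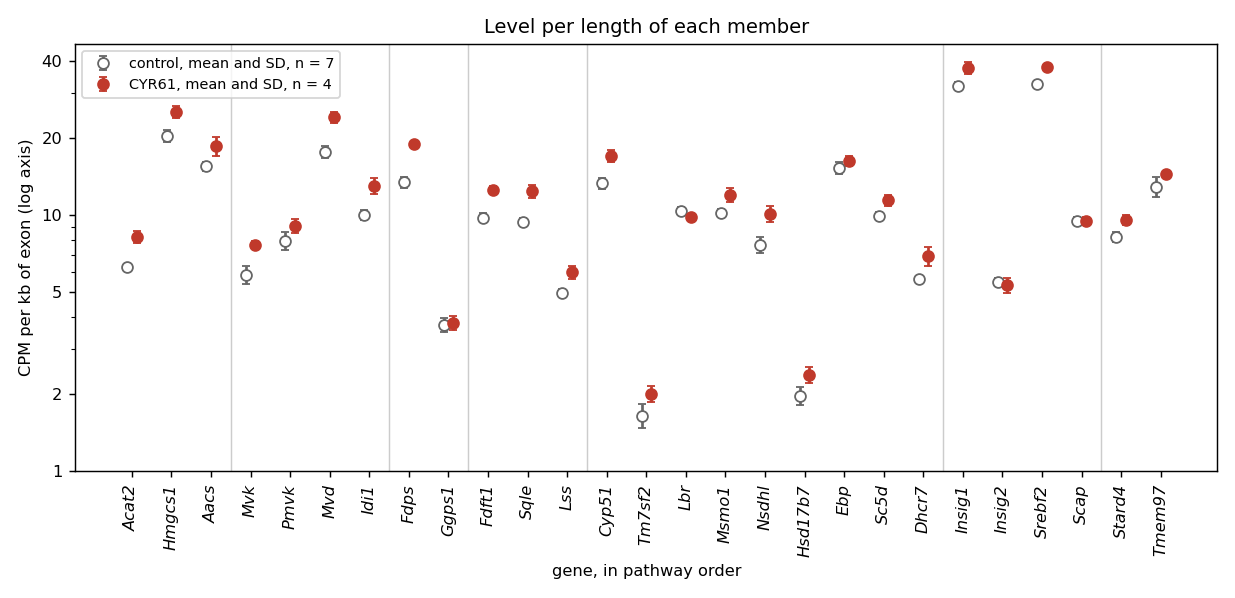
Level of each gene as CPM per kb of exon (log axis, mean and SD; open circles 7 controls, filled circles 4 CYR61 libraries), in pathway order with grey lines between roles. Srebf2 and Insig1 are highest and Tm7sf2 and Hsd17b7 lowest in both groups.

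The position of the libraries over the 27 genes, 8 of which did not pass, is given by medians, as a description with no test. The median log2 ratio of the 27 to the control mean was 0.23, 0.27, 0.25 and 0.29 in CYR61 replicates 1 to 4, and -0.07 to 0.02 in the controls, lowest in control replicate 1. Over all genes tested the median, here with 0.5 CPM added to each value, stayed between -0.01 and 0.001 in every library. CYR61 replicate 1 was the lowest of the 4 in 16 genes, such as Hmgcs1, Sqle, Cyp51, Msmo1, Sc5d, Insig1 and Stard4, and at the same time the highest in 8, such as Acat2, Aacs, Fdps, Lss and Srebf2. CYR61 replicate 4 was the highest in 11 genes, such as Mvd, Idi1, Sqle and Dhcr7. Control replicate 1 was the lowest control in 14 of the 27. The 27 genes varied little among controls, with a coefficient of variation of 2.16% to 10.8% (median 4.34%, beside 7.72% over all genes tested). This comparison was not matched for expression level, and the genes tested include many with few counts.

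Of 54 other genes of sterol sensing, branches, supply, traffic and uptake, 51 were tested. Among these, 7 rose, 0 fell and 44 did not pass, with a median of 1.01 times control. Over all genes tested, 5.33% rose and 2.63% fell. All 10 genes of SREBP processing and sterol sensing did not pass, among them the SREBP proteases Mbtps1 (1.003-fold, 95% interval 0.960 to 1.05) and Mbtps2 (0.920-fold, 0.864 to 0.981, edgeR adjusted p = 0.110) and Srebf1, which encodes SREBP1 (1.09-fold, 1.03 to 1.17, edgeR adjusted p = 0.0751). The 11 genes of the branches that lead off the mevalonate pathway did not pass either, nor did the 5 genes of SREBP2's promoter partners (Nfya, Nfyb, Nfyc, Sp1 and Creb1). Of 6 genes that supply acetyl-CoA or electrons, 4 rose. Acly, which makes cytosolic acetyl-CoA from citrate, went from 181 ± 3.61 to 210 ± 4.67 CPM (1.16-fold, edgeR adjusted p = 7.25e-05), and Acss2, which makes it from acetate, from 34.2 ± 3.47 to 40.5 ± 3.59 CPM (1.19-fold, adjusted p = 0.0409). Cyb5b and Cyb5r3, of the cytochrome b5 electron chain, rose 1.17-fold (109 ± 4.78 to 128 ± 3.94 CPM, edgeR adjusted p = 3.73e-04) and 1.08-fold (153 ± 5.88 to 166 ± 2.84 CPM, edgeR adjusted p = 0.0372). The other 3 rises were those of the lysosomal cholesterol carrier Npc2 (1.09-fold), the late endosomal carrier Stard3 (1.12-fold) and the lipoprotein receptor chaperone Lrpap1 (1.1-fold), with edgeR adjusted p of 0.0238, 0.0179 and 0.0224. Values are mean ± SD with n = 7 and n = 4. In place of 7, the number that rose was 3 to 6 when 1 library was left out, to 4 without control replicate 3 or 5 or CYR61 replicate 1 or 3, to 3 without CYR61 replicate 2 or 4, to 2 without CYR61 replicates 1 and 4 together and to 2 with counts scaled by library size alone, where 4 genes fell. Ch25h, which makes the SREBP2-suppressing oxysterol 25-hydroxycholesterol, was too low to be tested, at 0.198 to 0.643 CPM (median 0.394) and 0.388, 0.542, 0.235 and 0.382 CPM.

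Lists of the neighbouring lipid programmes are given beside these for scale, where 5.33% of all genes tested rose and 2.63% fell. Of 18 tested genes of fatty acid synthesis, 7 rose, 0 fell and 11 did not pass (median 1.08 times control). Among them were the desaturases Scd2 (1.39-fold), Scd1 (1.33-fold) and Fads2 (1.28-fold) and the synthase Fasn (1.19-fold), with edgeR adjusted p of 3.10e-08, 1.01e-04, 8.20e-05 and 0.00134, and Elovl1, Acsl1 and Acsl3 at 1.11-, 1.15- and 1.19-fold. Of 12 LXR and cholesterol efflux genes, 2 rose, 0 fell and 10 did not pass (median 1.04 times control). The 2 were the efflux pump Abca1, from 421 ± 15.2 to 480 ± 41.3 CPM (1.14-fold, edgeR adjusted p = 0.0114), and Lpcat3, a phospholipid-remodelling enzyme, from 49.2 ± 1.25 to 55.9 ± 2.15 CPM (1.14-fold, edgeR adjusted p = 0.00174). With counts scaled by library size alone, 5 fatty acid genes rose and 1 fell, and 2 LXR and efflux genes rose and 1 fell. Whether the cholesterol synthesis genes moved more than either list was not tested.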

How the data were processed

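RNA was depleted of ribosomal RNA and sequenced from 11 libraries, 7 control and 4 CYR61, per the labels' protocols. DRAGEN is named in the submitters' processing notes; its version and role, the genome build, the annotation and the strand were not given in these sources. The deposited table holds the authors' estimated counts per gene, of which 88.6 to 89.4% are whole in a library. Its 55774 rows gave 55487 gene IDs after 287 repeat rows were dropped, and 0 columns of per-sample values were left without a sample. The authors' own comparison, deposited with log2 fold changes and p-values, is quoted only where named.

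Counts were rounded to whole numbers, filtered with filterByExpr, scaled by TMM and tested with edgeR 4.0.16 in R 4.3.3 (quasi-likelihood test, no covariate, Benjamini-Hochberg adjustment over 15135 genes, threshold 0.05). CPM uses TMM-scaled library sizes. Standard errors are the absolute log2 fold change divided by the square root of the quasi-likelihood F statistic. The 95% intervals of folds use these standard errors. The biological coefficient of variation was 5.64%. Libraries held 14912123 to 21047654 counts. The scripts were tested on simulated data. Groups came from the labels. The 27 genes and all lists were chosen with earlier results of these data known. The text names all 27 genes, every gene of the sterol, LXR and fatty acid lists that passed, and Mmab, Ch25h, Mbtps1, Mbtps2 and Srebf1 whatever their result; further genes named, the pairs whose ratios are given and the sequences printed were chosen after values were seen. Alternatives were DESeq2 1.42.0, limma 3.58.1 (voom, with and without library weights), RLE scaling, library size alone, a filter at a mean of 1 CPM, no filter, removal of mitochondrial and ribosomal RNA genes, a threshold of 0.01, a replicate block, and leaving out each library. Leaving out CYR61 replicates 1 and 4 together was added after seeing the data. Upstream sequences are RefSeq's on GRCm38.p6; overlaps and exon lengths are from GENCODE M21. The result of 1 further cell type marker list is not reported here.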

Additional observations from a re-analysis of the deposited data

Results flagged for a closer look

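In 3 of 60 sets of values examined (27 genes and 3 library measures in each group), 1 library stood apart from its group by more than the 95% limit for a gap to the nearest neighbour; chance gives this in about 1 in 20 sets. Mvd, mevalonate diphosphate decarboxylase, was at 48.1 CPM in CYR61 replicate 4 against 43.4 to 44.1 CPM in the other 3 CYR61 libraries, a gap of 0.846 of the range. Sc5d, the sterol desaturase, was at 51.3 CPM in CYR61 replicate 1 against 56.7 to 57.2 CPM in the others, a gap of 0.915 of the range. The share of ribosomal RNA was 2.4% in CYR61 replicate 4 against 0.246 to 0.562% in the others, a gap of 0.854 of the range. Both genes rose in edgeR without the library concerned and without CYR61 replicates 1 and 4 together.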

How the results depend on the processing

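Of the 19 genes that rose, 18 kept their call in all 22 alternatives fitted at the same threshold, and the exception was Hsd17b7. The number of the 27 that rose ran from 18 to 21 when 1 library was left out, and was 18 at an adjusted p under 0.01. Across those fits with 1 library left out, 583 to 903 of all genes rose, 205 to 469 fell (205 without CYR61 replicate 2), and 3 to 6 of the related sterol genes rose. Scaling by library size alone gave 529 genes higher and 938 lower, 1 of the 27 lower, and 2 related sterol genes higher and 4 lower; it moved the median log2 change of all genes from -0.008 to -0.052. At an adjusted p under 0.01, 477 genes rose and 163 fell, with 2 related sterol genes higher, and without CYR61 replicates 1 and 4 together 2 related sterol genes were higher. Scaling by library size alone leaves out the TMM factors, which were 0.971 to 0.993 in CYR61 libraries and 1.004 to 1.023 in controls. Why these factors differed between the groups was not tested. Nor was the cause of the other shifts.

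With the replicate number as a block in the 8 libraries with shared numbers, 18 of the 27 rose and 0 fell, 811 genes rose and 450 fell, and 6 related sterol genes rose and 1 fell. The values showed no sign of a pairing by number. Deviations of same-numbered libraries correlated at -0.0147, -0.00305, -0.0518 and 0.0482, and only the pair numbered 4 correlated best with its own number. So few pairs cannot exclude a pairing, and the labels state none. Hsd17b7 had an adjusted p of 0.0896 with the block and 0.0933 in the same 8 libraries without it.

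Log2 changes near 0 changed sign without passing. For Scap they were -0.002 with library weights, -0.041 with library size alone and -0.02 without CYR61 replicates 1 and 4, and -0.002 without control replicate 1, 4 or 5, -0.017 without CYR61 replicate 1 and -0.00048 without CYR61 replicate 3; leaving out 1 library gave at most 0.023. For Ggps1 they were -0.02 with library size alone, -4e-05 without control replicate 3 and -0.016 without CYR61 replicate 3, against at most 0.058 with 1 library left out, and for Insig2 0.005 without CYR61 replicates 1 and 4. The depth of the weakest genes, from 119 counts for Tm7sf2, limits what can be said of their folds.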
